A study of Mus musculus with 5 samples.

Results

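The genes described here are 6 members of the MS4A family, *Ms4a4b*, *Ms4a4c*, *Ms4a4d*, *Ms4a6b*, *Ms4a6c* and *Ms4a6d*, in sorted thymic CD4 single positive (CD4 SP) cells. They are 6 of the 55487 gene identifiers in the count tables and 6 of the 21 genes that the annotation names *Ms4a*. They were chosen by name as neighbours on chromosome 19 with their levels and their change between the genotypes in view, so their differences between genotypes are given as values with their errors and no p, and where they are counted against a threshold the count only describes them. RNA was sequenced from 3 wild type (WT) mice and from 2 *Tet2/3* DKO mice, with 1 library per mouse. The DKO genotype is *Tet2*-/- *Tet3* flx/flx CD4cre, in which *Tet2* is lost in the germline and *Tet3* is deleted by a Cre recombinase that the CD4 promoter drives from the stage of double positive thymocytes. All mice were C57BL/6J and 21 to 30 days old, and the sorted cells were live, CD24 low, TCRb+, CD4+, CD8- and negative for the CD1d tetramer that marks iNKT cells.

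MS4A proteins cross the membrane 4 times, and CD20 of B cells, encoded by *Ms4a1*, is the best known of them. Many of the genes lie side by side in 1 cluster, and its members are used by different blood cells. MS4A1 marks B cells, the product of *Ms4a2* is the beta chain of the high affinity IgE receptor of mast cells and basophils, and *Ms4a7* and *Ms4a4a* are known from macrophages. MS4A4B is an adaptor of T cells that associates with the costimulatory receptor GITR, and several mouse genes of the *Ms4a4* and *Ms4a6* types are known to be induced by interferon or in activated myeloid cells.

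Counts assigned to genes ranged from 17607089 to 27267031 per library. Reads outside annotated features made up 5.90% of *Tet2/3* DKO replicate 1 and from 3.61% to 3.82% of the other 4 libraries. *Tet3*, the gene deleted by Cre, had 1133, 1082 and 1440 counts in WT against 419 and 235 in DKO libraries. *Tet2* had 1355, 1286 and 1585 counts in WT against 1919 and 1048 in DKO libraries, and counts over a whole gene do not show whether some of its exons are missing. *Tet2/3* DKO replicate 1 had 744 *Xist* counts and 7 counts over 4 Y-linked genes, whereas the other 4 libraries had at most 2 and at least 5101, although the labels give WT replicate 1 as the female mouse. Leaving out *Tet2/3* DKO replicate 1 is given beside each result whose call it ends or whose value it moves by over 1.5 times. The T cell gene *Cd3e* was high in all libraries, at 668, 695 and 743 CPM (counts divided by library size, with TMM factors) in WT and 665 and 621 in DKO cells.

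The 6 members lie within 200 kb of mm10 chromosome 19. In order along the chromosome these are *Ms4a4c* (chr19:11404770-11427246), *Ms4a4b* (chr19:11443553-11467055), *Ms4a6c* (chr19:11469366-11482192), *Ms4a6b* (chr19:11516512-11531256), *Ms4a4d* (chr19:11536801-11558467) and *Ms4a6d* (chr19:11586604-11604849). The first 5 are on the plus strand and *Ms4a6d* is on the minus strand. All are protein-coding genes.

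By coding sequence they form a pair of groups. Within the *Ms4a4* type, identity over the aligned columns was 91.8% for *Ms4a4b* and *Ms4a4c*, 85.5% for *Ms4a4c* and *Ms4a4d* and 83.3% for *Ms4a4b* and *Ms4a4d*. Within the *Ms4a6* type it was 79.9% for *Ms4a6b* and *Ms4a6d*, 74.3% for *Ms4a6b* and *Ms4a6c* and 67.4% for *Ms4a6c* and *Ms4a6d*. Between the types it stayed between 49.0% and 51.7%.

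**Figure D1:**
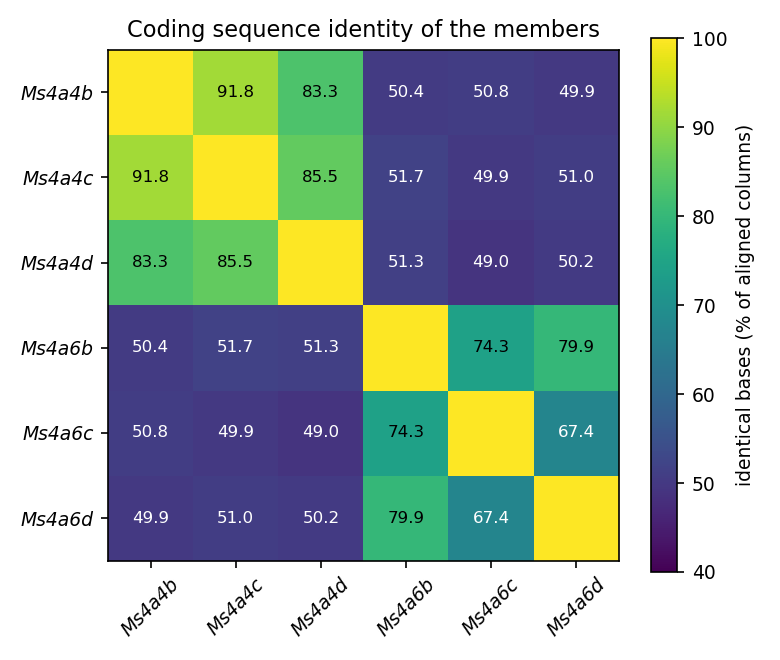
Identity of the coding sequences of each pair of the 6 members, as percent of aligned columns (colour and number). *Ms4a4b*, *Ms4a4c* and *Ms4a4d* form 1 block of 83.3% to 91.8% and *Ms4a6b*, *Ms4a6c* and *Ms4a6d* another of 67.4% to 79.9%, with at most 51.7% between the blocks.

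Likeness of this kind bears on the counts, because reads that fit several places were not counted. Of the 50-base windows of the longest transcript, 4.19% in *Ms4a4b*, 8.48% in *Ms4a4c*, 0.546% in *Ms4a4d*, 5.89% in *Ms4a6b* and 2.92% in *Ms4a6d* also occurred in a transcript of another gene. *Ms4a6c* stood apart with 56.9%, most of it shared with *BE692007*, a gene on the opposite strand that covers 1088 of the 2050 exon bases of *Ms4a6c*. The libraries do not keep strand, so reads from these bases cannot be told apart and the count of *Ms4a6c* rests on the rest of its exons.

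Because the members differ between the genotypes together, the stretches before their starts are shown for the pairs whose promoters share the longest exact run. They were taken from RefSeq for GRCm38.p6, the build also called mm10, as the 250 bases upstream of the start, all on the plus strand. The promoter table matched 5 of the 6 members, all but *Ms4a6d*. The windows are chr19:11443308-11443557 for *Ms4a4b*, chr19:11407411-11407660 for *Ms4a4c*, chr19:11518309-11518558 for *Ms4a6b* and chr19:11469118-11469367 for *Ms4a6c*. The RefSeq start of *Ms4a4c* lies inside the gene model of the GENCODE annotation, as does that of *Ms4a6b*. Capitals mark the longest run of bases that *Ms4a4b* shares with *Ms4a4c*, 20 bases, and that *Ms4a6b* shares with *Ms4a6c*, 48 bases.
Ms4a4b: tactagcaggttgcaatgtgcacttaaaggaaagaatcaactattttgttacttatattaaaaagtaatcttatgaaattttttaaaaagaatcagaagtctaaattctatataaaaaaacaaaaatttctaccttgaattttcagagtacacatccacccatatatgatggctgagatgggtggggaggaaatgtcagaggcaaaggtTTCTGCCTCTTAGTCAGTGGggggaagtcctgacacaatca
Ms4a4c: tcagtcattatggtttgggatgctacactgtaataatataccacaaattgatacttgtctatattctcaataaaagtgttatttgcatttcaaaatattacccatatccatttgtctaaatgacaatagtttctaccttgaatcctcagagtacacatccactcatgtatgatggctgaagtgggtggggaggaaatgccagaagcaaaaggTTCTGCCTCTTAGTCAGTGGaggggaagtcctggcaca
Ms4a6b: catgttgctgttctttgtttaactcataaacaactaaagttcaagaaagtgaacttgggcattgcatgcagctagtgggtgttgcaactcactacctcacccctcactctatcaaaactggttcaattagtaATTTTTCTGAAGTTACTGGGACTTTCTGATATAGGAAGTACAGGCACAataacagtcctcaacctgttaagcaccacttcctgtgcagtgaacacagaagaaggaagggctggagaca
Ms4a6c: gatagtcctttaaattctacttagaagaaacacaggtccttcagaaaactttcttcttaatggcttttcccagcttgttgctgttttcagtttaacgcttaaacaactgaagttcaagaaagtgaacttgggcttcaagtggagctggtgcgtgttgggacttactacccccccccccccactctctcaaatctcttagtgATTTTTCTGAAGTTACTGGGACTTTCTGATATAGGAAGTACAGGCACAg

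Aligned end to end, 180 of the 239 bases of the first pair that stood opposite each other were identical, or 75.3%. In the second pair the alignment was offset, so that 175 bases stood opposite each other, of which 149 were identical, or 85.1%, 101 of them outside the shared run. The 8 pairs outside these 2 had 50.2% to 58.3%. CG dinucleotides, the sites whose methyl groups TET enzymes oxidise, were counted in the same windows. There were 0 in *Ms4a4b*, *Ms4a4c* and *Ms4a6b*, 2 in *Ms4a6c* and 3 in *Ms4a4d*. Of 32536 promoters of this length, 7.80% held 0 CG and the median was 6. Other *Ms4a* genes were also poor in CG, with 4 of the 13 found at 0. Both strands were searched for the interferon response motif, which is GAAA, NN and GAAA in a row, for TTCNNNGAA of STAT factors, AGGTGT of T-box factors and CCGGAA of ETS factors, and none was in the 5 windows. These letters occur in 2.98%, 7.04%, 11.9% and 12.1% of all promoters. CCGGAA holds a CG, so it could not occur in the windows of *Ms4a4b*, *Ms4a4c* and *Ms4a6b*, which held 0 CG. Forms of the ETS site without a CG were not searched, so nothing is read on ETS sites in these windows. The RUNX motif TGTGGT, in 14.0% of all promoters, occurred once, on the minus strand of *Ms4a4c* from 211 bases before the start.

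All 6 members had higher CPM in every *Tet2/3* DKO library than in any WT library. Of the 13525 genes tested, 19.6% had that order, and nothing is read from the members' count because the order was in view when they were chosen. All 6 passed the filter on low counts. At the threshold used for all genes, 0.01 for the adjusted p of edgeR, 4 of the 6 were past the threshold, all of them higher, *Ms4a4b*, *Ms4a4c*, *Ms4a6c* and *Ms4a6d*, beside 3.92% of all genes tested in either direction and 2.42% higher and 1.5% lower in DKO cells. DESeq2 put 5 of the 6 past the same threshold, beside 6.91% of the genes it tested. The same contrast was in view when the members were chosen, so nothing is read from these counts or from the shares beside them. The median log2 fold change was 1.28 over the members and 0.01 over all genes tested. In bulk libraries, more cells that use a gene and more RNA of it in each cell cannot be told apart. The count of 4 became 2 without WT replicate 2 and 2 without WT replicate 3.

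**Figure D2:**
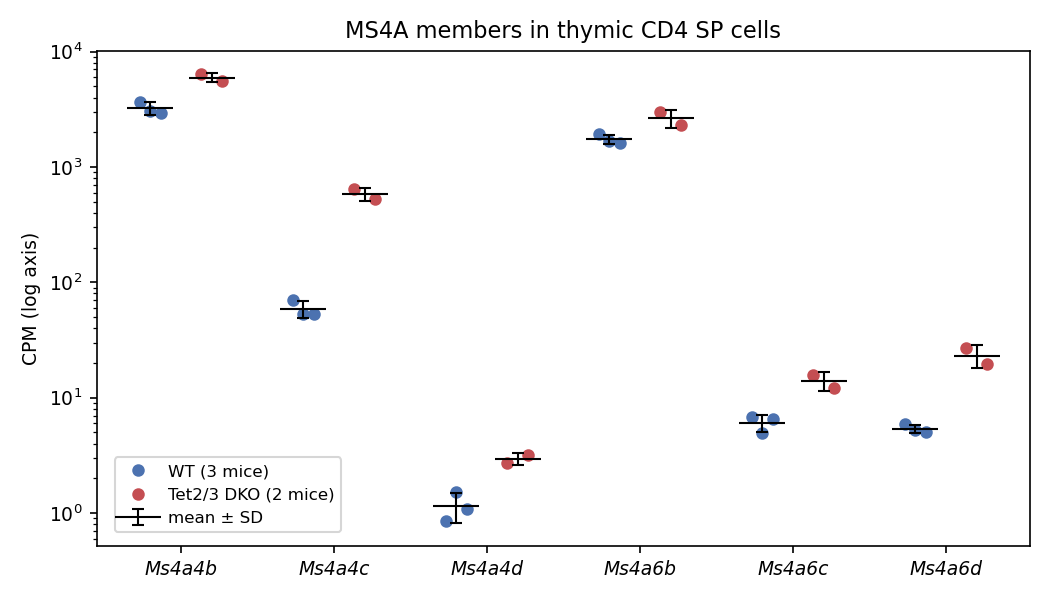
CPM of the 6 members on a log axis, with 1 point per mouse for 3 WT (blue) and 2 *Tet2/3* DKO (red) libraries and the mean ± SD in black. The DKO points lie above the WT points for each member, with the widest gap for *Ms4a4c*, at 53.3 to 69.7 CPM in WT and 529 and 639 in DKO cells.

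*Ms4a4b*, the T cell adaptor, was one of the most abundant transcripts of these cells. WT replicates 1, 2 and 3 had 95227, 71954 and 81046 counts of it, and DKO replicates 1 and 2 had 132928 and 99870. By TPM, which divides counts by exon length as well as library size, it ranked from 127 to 49 among 55227 genes in the single libraries. Its level was 3683, 3032 and 2953 CPM in WT and 6337 and 5588 CPM in DKO libraries. The lowest DKO library was 1.52 times the highest WT library, and the log2 fold change was 0.89 (standard error, SE, 0.11). Reads of this gene alone made up 0.322% of all gene counts in WT and 0.595% in DKO cells.

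*Ms4a4c*, its closest relative by coding sequence, was the member that differed by most between the genotypes. Its counts were 1801, 1264 and 1467 in WT and 13397 and 9450 in DKO libraries. These were 69.7, 53.3 and 53.5 CPM in WT, a mean of 58.8 ± 9.41 (SD, n = 3), and 639 and 529 CPM in DKO cells, a mean of 584 ± 77.8 (SD, n = 2). Both DKO libraries stood far above all WT libraries, the lower of them at 7.59 times the highest WT library. The log2 fold change was 3.31 (SE 0.14), a 9.93-fold difference that ranked 163 among the 13525 genes tested. By TPM *Ms4a4c* went from rank 2023 by its WT mean to rank 131 by its DKO mean.

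*Ms4a4d*, the third gene of this type, was the least abundant member. It had 22, 36 and 30 counts in WT against 57 in each DKO library, or 0.851, 1.52 and 1.09 CPM in WT and 2.72 and 3.19 CPM in DKO cells. The groups did not overlap, but the WT libraries differed among themselves by 1.78 times, as much as the 1.79 times between the highest WT and the lowest DKO library. The log2 fold change was 1.36 with a standard error of 0.34, the widest of the members.

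*Ms4a6b* was the second most abundant member by CPM. Its counts were 49793, 39979 and 44191 in WT and 62235 and 41043 in DKO libraries, or 1926, 1684 and 1610 CPM in WT and 2967 and 2296 CPM in DKO cells. The DKO libraries were above the WT libraries by a narrow margin, the lower of them at 1.19 times the highest WT library, while the DKO libraries themselves differed by 1.29 times. The log2 fold change of 0.60 (SE 0.12) was the smallest of the members. Without *Tet2/3* DKO replicate 1 it was 0.40.

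*Ms4a6c* had 175, 117 and 180 counts in WT against 332 and 218 in DKO libraries. Its level was 6.77, 4.93 and 6.56 CPM in WT and 15.8 and 12.2 CPM in DKO cells, and the groups did not overlap. The log2 fold change was 1.20 (SE 0.21). When reads were counted by strand, which keeps reads over *BE692007*, it was 1.03 and 1.09 for the first and second read strand.

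*Ms4a6d* had 152, 125 and 137 counts in WT against 563 and 349 in DKO libraries, or 5.88, 5.27 and 4.99 CPM in WT and 26.8 and 19.5 CPM in DKO cells. The lower DKO library was 3.32 times the highest WT library. The log2 fold change of 2.11 (SE 0.19) was next in size to that of *Ms4a4c*, and without *Tet2/3* DKO replicate 1 it was 1.86. *Ms4a6c* was the member just inside the threshold, and *Ms4a6b* and *Ms4a4d* were outside it.

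The size of the difference did not follow the level. The members with the highest levels, *Ms4a4b* and *Ms4a6b*, had the smallest log2 fold changes, and *Ms4a4c*, of middle level, had the largest. Nor did it follow sequence type, since the *Ms4a4* genes spanned 0.89 to 3.31 and the *Ms4a6* genes 0.60 to 2.11. It did not follow the order along the chromosome either, where the log2 fold changes read 3.31, 0.89, 1.20, 0.60, 1.36 and 2.11. In 5 of the 6 members *Tet2/3* DKO replicate 1 was the higher DKO library, by 1.13 to 1.37 times, and *Ms4a4d* was the exception.

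Levels of different genes can be set side by side only per length. On TPM over all exons, the WT means were 1103 for *Ms4a6b*, 1043 for *Ms4a4b*, 95.3 for *Ms4a4c*, 8.81 for *Ms4a6d*, 8.42 for *Ms4a6c* and 2.18 for *Ms4a4d*. The DKO means on the same scale were 1887 for *Ms4a4b*, 1627 for *Ms4a6b*, 925 for *Ms4a4c*, 37.0 for *Ms4a6d* and 5.44 for *Ms4a4d*, and *Ms4a6c* was at 20.9 and 17.0 in DKO replicates 1 and 2. The order of *Ms4a4b* and *Ms4a6b* in WT cells depended on the length used. Per kilobase of the longest coding transcript, the WT means in RPKM were 678 ± 84.4 for *Ms4a4b* and 649 ± 61.6 for *Ms4a6b* (SD, n = 3), closer together than their spread. The levels of *Ms4a6c* per length divide by all its exon bases, of which 1088 of 2050 overlap *BE692007*, where reads were left out as ambiguous, so they are understated and no order between *Ms4a6c* and *Ms4a6d* is read from them.

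Together the 6 members took 0.560%, 0.482% and 0.466% of the gene counts of the WT libraries and 0.980% and 0.858% of those of the DKO libraries. *Ms4a4b* held a near constant share of these reads, from 63.4% to 66.1% over the 5 libraries. *Ms4a6b* went from 33.8% to 35.2% in WT to 29.7% and 27.2% in DKO cells. *Ms4a4c* went from 1.11% to 1.22% in WT to 6.39% and 6.26% in DKO cells.

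The balance of 3 pairs of members of the same sequence type differed between the genotypes. *Ms4a4b* had 52.9, 56.9 and 55.2 reads for each read of *Ms4a4c* in WT cells and 9.92 and 10.6 in DKO cells. *Ms4a6b* had 328, 320 and 323 reads for each read of *Ms4a6d* in WT cells and 111 and 118 in DKO cells. The ratio of *Ms4a6b* to *Ms4a6c* varied more among the WT libraries, at 285, 342 and 246, and was 187 and 188 in DKO cells. All 3 ratios were lower in both DKO libraries than in any WT library. These ratios are taken within a library and do not depend on how libraries were scaled. No ratio was taken with *Ms4a4d*. Its share of the members' reads overlapped between the genotypes, at 0.0149%, 0.0317% and 0.0236% in WT and 0.0272% and 0.0378% in DKO libraries.

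**Figure D3:**
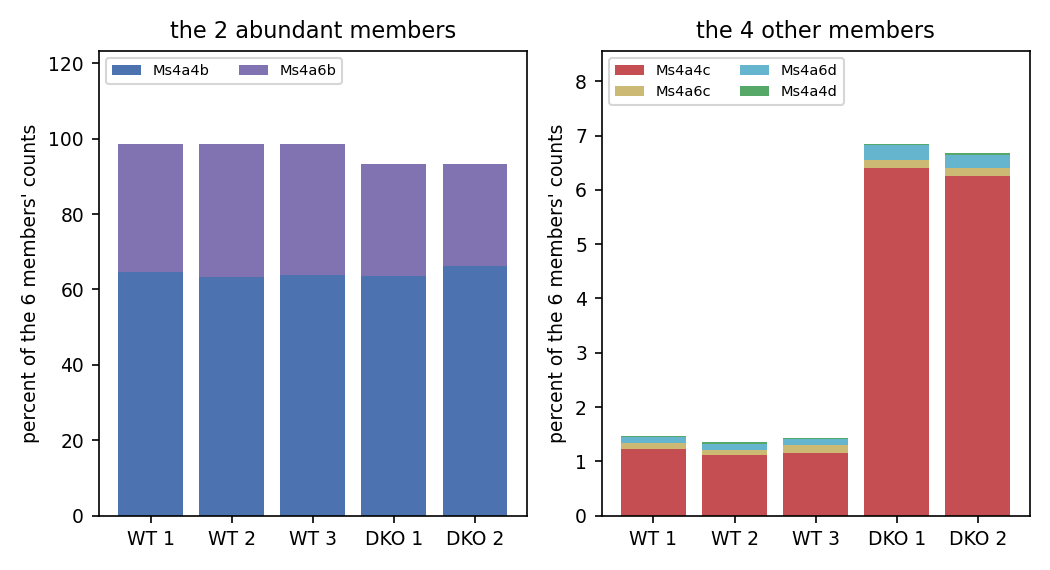
Share of the 6 members' summed counts taken by each member in each library, in percent (bars start at 0), with the 2 abundant members on the left and the other 4 on the right. *Ms4a4c* takes 1.11% to 1.22% in the WT libraries and 6.26% and 6.39% in the DKO libraries, and the share of *Ms4a6b* is lower in the DKO libraries.

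Of the other 15 *Ms4a* genes, 13 were at or near 0. *Ms4a10*, *Ms4a18*, *Ms4a20*, *Ms4a19*, *Ms4a13*, *Ms4a12*, *Ms4a5*, *Ms4a14* and *Ms4a3* had no count in any of the 5 libraries, which at a limit of 3 counts allows up to 0.110 CPM in the deepest library, WT replicate 3, and up to 0.170 CPM in the shallowest, DKO replicate 2. *Ms4a2* had 1 count in all, and *Ms4a1* of B cells had 2, 7 and 2 counts in WT against 0 and 7 in DKO libraries. *Ms4a15* had 3 counts in all. *Ms4a8a* had 1, 0 and 0 counts in WT against 8 and 6 in DKO libraries, too few to be tested.

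Of these 15 genes, *Ms4a4a* and *Ms4a7* passed the filter, and 0 of these 2 were past the threshold with edgeR or DESeq2, with 1 at an unadjusted p under 0.05 in edgeR. *Ms4a4a* lies next to *Ms4a4c*, and had 68, 45 and 43 counts in WT against 80 and 93 in DKO libraries, with a log2 fold change of 1.14 (SE 0.31, adjusted p = 0.0568 with edgeR's quasi-likelihood test and Benjamini-Hochberg adjustment). *Ms4a7* had 10, 19 and 14 counts in WT against 24 and 16 in DKO libraries, with a log2 fold change of 0.88 (SE 0.46, adjusted p = 0.303 in the same edgeR test). The MS4A relatives *Tmem176a* and *Tmem176b* lie on chromosome 6 and encode proteins of the same 4-span shape. *Tmem176a* rose from 176, 162 and 195 counts to 329 and 238, a log2 fold change of 1.07 (SE 0.17, adjusted p = 0.00505 in the same edgeR test), and was not past the threshold without WT replicate 1, 2 or 3 in turn. *Tmem176b* had a log2 fold change of 0.67 (SE 0.16, adjusted p = 0.0335 in the same edgeR test).

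Whether the genes around the members moved with them was examined over 115 genes that lie inside the *Ms4a* cluster or within 1 Mb of its ends and are not named *Ms4a*. Of these, 39 were tested and 11 were past the threshold, 8 of them higher and 3 lower in DKO cells, beside 3.92% of all genes tested. Their median log2 fold change was 0.03 over the 39 genes, against 0.01 over all genes tested. The count of 11 became 4, 3 and 3 without WT replicates 1, 2 and 3, and 5 with the replicate number as a block. Without WT replicate 2 or WT replicate 3 the calls left were *AW112010*, *Cd5* and *Cd6*.

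Inside the cluster, from its first to its last *Ms4a* gene over 679 kb, 8 genes not named *Ms4a* were tested. Of these, 6 rose, and the median log2 fold change of the 8 was 1.15. *AW112010*, a long noncoding RNA gene, had 5046, 4295 and 5048 counts in WT against 14180 and 13054 in DKO libraries. This was a log2 fold change of 1.91 (SE 0.08, adjusted p = 3.45e-06 with edgeR). It was past the threshold in every alternative that kept both DKO libraries, those without 1 WT library included. Without *Tet2/3* DKO replicate 1 and 2 in turn, the log2 fold change was 1.97 and 1.84. *Gm28935* rose from 149, 84 and 105 counts to 277 and 240, a log2 fold change of 1.60 (SE 0.23, adjusted p = 0.00269 in the same edgeR test). Neither shares a 50-base window with a member.

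The other 4 that rose lie among the members themselves. *BE692007*, which overlaps *Ms4a6c* on the opposite strand, rose by 1.24 on the log2 scale (SE 0.15, adjusted p = 0.00112 with edgeR). *Gm19261*, which overlaps *Ms4a6b* by 19 exon bases on the opposite strand, rose by 1.39 (SE 0.22, adjusted p = 0.00449 with edgeR), and the pseudogene *Gm5511* by 1.05 (SE 0.16, adjusted p = 0.00361 with edgeR). The libraries keep no strand, so antisense reads and reads of the member cannot be told apart where exons overlap.

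*Gm8369* lies between *Ms4a6c* and *Ms4a6b* and bears no *Ms4a* name. A stretch of its longest transcript aligned with the coding sequence of *Ms4a4c* over 182 columns at 85.7% identity, with *Ms4a4d* over 180 columns at 83.3% and with *Ms4a4b* over 177 columns at 80.8%. Its counts were 2416, 1912 and 2479 in WT and 2992 and 2761 in DKO libraries, or 93.5, 80.6 and 90.3 CPM in WT and 143 and 154 CPM in DKO cells. It rose by 0.75 on the log2 scale (SE 0.10, adjusted p = 0.00192 with edgeR), and only 0.390% of its 50-base windows occurred in a member.

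Outside the cluster the flanks differed. On the side of lower coordinates 22 genes were tested. Their log2 fold changes had a median of -0.15, and 3 were past the threshold, all lower in DKO cells. These were *Cd5* and *Cd6*, which encode inhibitory coreceptors of T cells, and *A430093F15Rik*, which lies between them. *Cd5* fell from 23142, 22329 and 24308 counts to 8467 and 6150, a log2 fold change of -1.28 (SE 0.10, adjusted p = 8.57e-05 with edgeR). *Cd6* fell by 1.33 on the log2 scale (SE 0.11, adjusted p = 0.000151 with edgeR) and *A430093F15Rik* by 1.13 (SE 0.16, adjusted p = 0.00275 with edgeR). On the other side 9 genes were tested, 8 of them with log2 fold changes above 0 and the median at 0.54, and 2 rose, *Dtx4* at 10, 13 and 13 counts in WT against 57 and 62 in DKO libraries and *Gm6545* at 157, 103 and 121 counts in WT against 297 and 178 in DKO libraries. Their adjusted p was 0.00233 and 0.00997 with edgeR, and they lie 825 kb and 888 kb beyond the cluster. The call of *Gm6545* was kept in 9 of 16 alternatives and ended without *Tet2/3* DKO replicate 1 (adjusted p = 0.0101 with edgeR), without each WT library, with the legacy moderation, the second read strand and the replicate block. *Dtx4* was kept in 12 of 16 and ended without each WT library and with the block.

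The genes nearest to the 2 ends of the cluster gave no call. *Ccdc86*, 13.0 kb before it, had a log2 fold change of 0.03 (SE 0.11, adjusted p = 0.904 with edgeR). *Mrpl16*, 130 kb after it, had 0.27 (SE 0.11, adjusted p = 0.171 with edgeR).

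**Figure D4:**
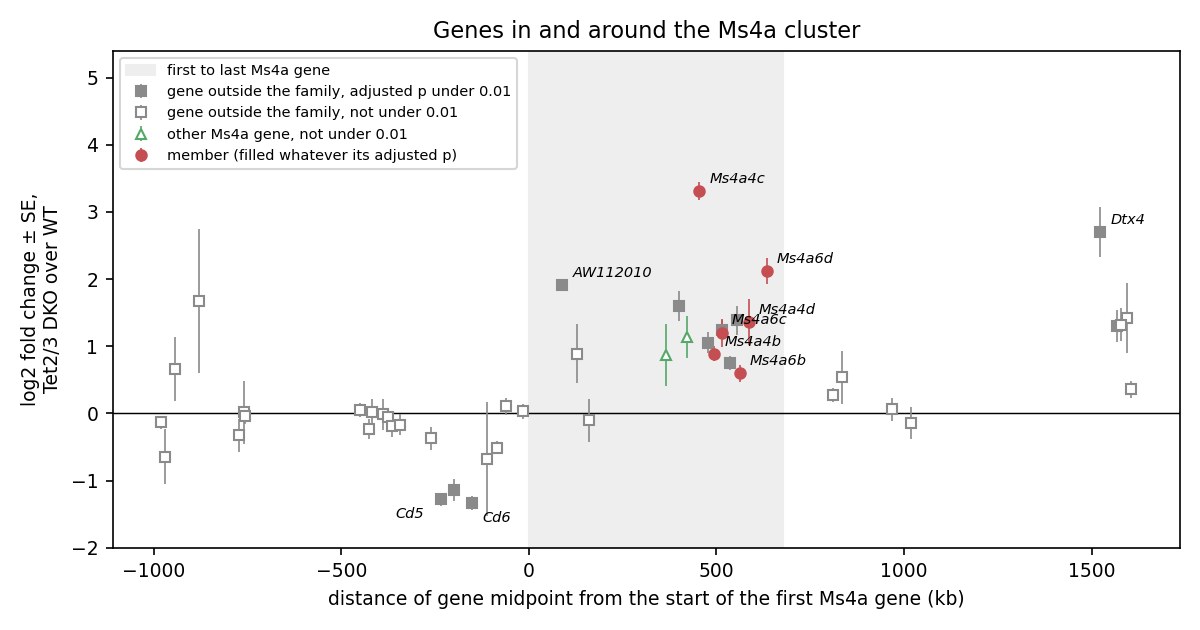
Log2 fold change ± standard error of the tested genes in and around the *Ms4a* cluster, against the distance of the gene's midpoint from the start of the first *Ms4a* gene in kb, with the cluster shaded. Members (red) are all filled whichever side of the threshold they are on. In the shaded stretch, 6 of the 8 tested genes not named *Ms4a* are above 0 and filled, which marks an adjusted p under 0.01. The legend calls such genes outside the family. *Cd5* and *Cd6*, before the shaded stretch, are below 0.

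Interferon-stimulated genes were followed because *Ms4a* genes are known targets of interferon. Of 38 listed, all were tested and 4 rose, *Mx1*, *Ly6a*, *Oas1a* and *Ifit1bl1*, and 0 fell with edgeR or DESeq2 (1 at an unadjusted p under 0.05 in edgeR), beside 3.92% of all genes tested. The median log2 fold change was 0.40 against 0.01 over all genes, and 34 of the 38 values were above 0. *Mx1*, an antiviral GTPase, went from 14.2, 8.30 and 7.62 CPM to 28.1 and 29.2, a log2 fold change of 1.51 (SE 0.24, adjusted p = 0.00448 with edgeR). *Ly6a*, the surface antigen Sca-1, went from 297, 282 and 236 CPM to 720 and 620, a log2 fold change of 1.30 (SE 0.11, adjusted p = 0.000203 with edgeR). *Oas1a* had a log2 fold change of 1.14, which was 0.75 without *Tet2/3* DKO replicate 1. The count of 4 became 1 without WT replicate 2 or WT replicate 3. Without *Tet2/3* DKO replicate 2, a single DKO library is left and the spread comes from the WT libraries alone. Nothing is read from the count in that fit.

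GITR, the receptor that MS4A4B associates with, is encoded by *Tnfrsf18*. Its level was 219, 185 and 244 CPM in WT and 161 and 147 CPM in DKO cells. Both DKO libraries were below the WT libraries, the opposite order to *Ms4a4b*, and the log2 fold change of -0.49 (SE 0.12, adjusted p = 0.0394 with edgeR) did not pass 0.01. Of 9 tested genes of a list for GITR and regulatory T cells, *Nt5e* and *Izumo1r* rose and *Foxp3* fell. These 3 calls stand beside 3.92% of all genes tested. *Foxp3*, the lineage factor of regulatory T cells, went from 44.4, 58.1 and 54.3 CPM to 17.9 and 24.3, a log2 fold change of -1.31 (SE 0.17, adjusted p = 0.00191 with edgeR). Counted by strand, *Foxp3* fell short of the threshold with the first read strand (-0.59, adjusted p = 0.0119 with edgeR) and passed it with the second (-0.70, adjusted p = 0.00264). *Nt5e* had a log2 fold change of 1.74, which was 1.01 without *Tet2/3* DKO replicate 2. Its call was kept in 11 of 16 alternatives. The count of 3 became 5 and 8 without *Tet2/3* DKO replicate 1 and 2, 1 without WT replicate 1, and 0 without WT replicate 2 or WT replicate 3, where 5 genes still had an unadjusted p under 0.05 in edgeR; DESeq2 with all libraries called 4.

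Genes that mark late and early stages of CD4 SP maturation did not move as 1 group. Of 12 late genes, 4 rose, *H2-Q6*, *Ly6c2*, *H2-Q7* and *Ly6c1*. Another 2 fell, *Ccr7* and *S1pr1*, which guide migration in and out of the thymus. Of all genes tested, 2.42% were past the threshold and higher and 1.5% lower. DESeq2 called 5 of the 12 late genes higher and 6 lower, beside 6.91% of the genes it tested. *H2-Q6*, a class I gene, went from 25.8, 27.3 and 28.7 CPM to 76.6 and 108, a log2 fold change of 1.75 (SE 0.15, adjusted p = 0.000166 with edgeR). *Ccr7* fell by 0.65 on the log2 scale (SE 0.08, adjusted p = 0.00153 with edgeR). Of 10 tested early genes 1 rose, *Ccr4*. The 7 calls over both lists became 2 without WT replicate 1, 2 or 3, and 13 and 12 without *Tet2/3* DKO replicate 1 and 2.

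Markers of other cell types were read because several *Ms4a* genes are used by myeloid cells. The summed CPM of 12 macrophage and monocyte markers was 12.6 to 20.8 in WT libraries and 44.3 and 71.5 in DKO replicates 1 and 2. Of these sums, *Lyz2* made up 10.8, 10.4 and 5.83 CPM in WT and 18.6 and 42.5 in DKO libraries. Of the 12 markers, 10 were higher in both DKO libraries than in any WT library, beside 19.6% of all genes tested. *Csf1r*, a defining marker, had 7, 2 and 1 counts in WT against 15 and 19 in DKO libraries, and *Lyz2* had 279, 246 and 160 counts in WT against 390 and 759 in DKO libraries. All 9 markers tested had log2 fold changes above 0, with a median of 1.65. With edgeR 8 of them had an unadjusted p under 0.05. The 1 past the threshold was *C1qb*, beside 3.92% of all genes tested, a call that 10 of 16 alternatives kept. DESeq2 called 3. The part of such cells in the members' values was not tested.

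The summed CPM of 6 NK cell markers was 31.6 to 42.6 in WT and 319 and 571 in DKO libraries, most of it *Nkg7*. Of the 5 tested, *Ncr1*, *Klrb1c*, *Klrd1* and *Nkg7* rose. *Ncr1* had 1, 0 and 0 counts in WT against 31 and 40 in DKO libraries. The part of NK cells in the members' values was not tested either.

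The sum of 8 B cell markers was 6.42 to 8.42 CPM in WT and 10.4 and 11.4 CPM in DKO libraries, with 0 of 4 tested past the threshold in edgeR or DESeq2 (2 at an unadjusted p under 0.05 in edgeR). The sum of 9 dendritic cell markers was 70.9 to 96.2 CPM in WT and 85.2 and 144 CPM in DKO libraries. That of 7 mast cell and basophil markers was 3.35 to 4.63 CPM in WT and 3.72 and 6.99 CPM in DKO libraries, and *Fcer1a* had no count. Of the lineage genes of the sort, *Cd4* fell, at 635, 752 and 572 CPM in WT and 389 and 433 in DKO cells, and *Cd8b1* fell, at 66.9, 65.9 and 71.7 CPM in WT and 28.6 and 27.1 in DKO cells (adjusted p = 0.0095 and 0.000168 with edgeR). The call of *Cd4* ended in 5 of 16 alternatives, without size factors, with the legacy moderation and without WT replicate 1, 2 or 3. *Cd8a* had the opposite order, at 2.71, 2.91 and 5.39 CPM in WT and 5.77 and 8.67 in DKO cells, with a log2 fold change of 0.94 (SE 0.34, adjusted p = 0.128 with edgeR).

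**Figure D5:**
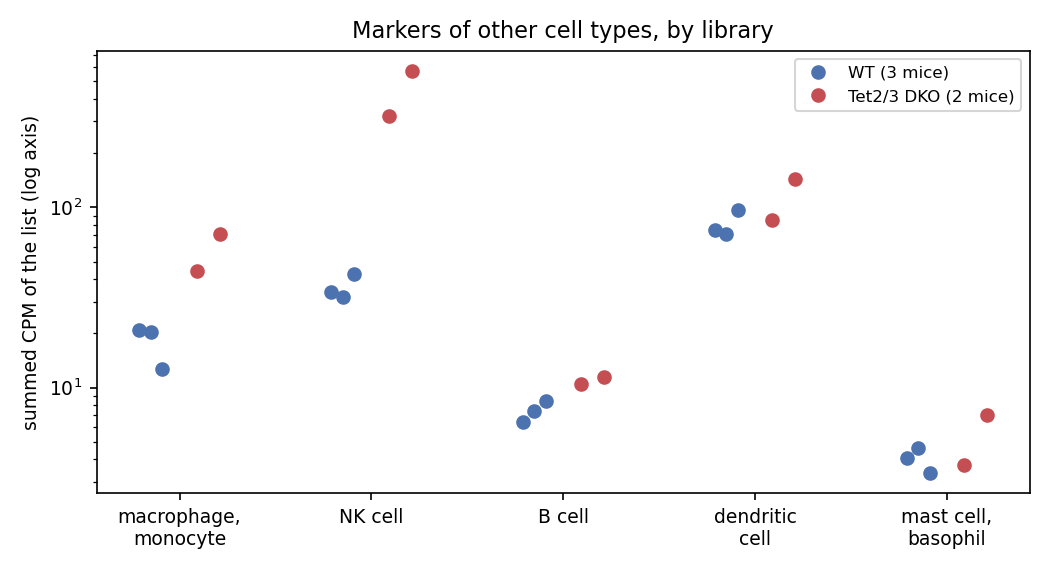
Summed CPM of marker lists for other cell types on a log axis, with 1 point per mouse for 3 WT (blue) and 2 *Tet2/3* DKO (red) libraries. The macrophage and monocyte sum (12.6 to 20.8 in WT, 44.3 and 71.5 in DKO libraries) and the NK cell sum (31.6 to 42.6 in WT, 319 and 571 in DKO libraries) separate the genotypes widely, and the B cell sum (6.42 to 8.42 in WT, 10.4 and 11.4 in DKO libraries) does so narrowly.

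For each member the genes whose profile over the 5 libraries lay closest were found among 13508 genes not named *Ms4a*. Closeness was the root mean square distance of centred log2 CPM. *Ms4a6b* was closest to *Irf7*, the regulator of the interferon response, at a distance of 0.05, and then to *Phf11c* and *1700019C18Rik*. *Irf7* had 15693, 12033 and 13634 counts in WT against 20546 and 12513 in DKO libraries, with a log2 fold change of 0.65. *Ms4a4c* was closest to *Plac8*, at 0.13, which had 101, 72 and 96 counts in WT against 794 and 686 in DKO libraries, and then to *Tmem213* and *Coprs*.

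*Ms4a6d* was closest to *Ccdc102a*, at 0.06, and to *Ifi208*, an interferon-inducible gene, at 0.09, which had 4588, 3957 and 4021 counts in WT against 14761 and 9821 in DKO libraries. *Gm33460* followed. *Ms4a4b* was closest to *CT485616.1*, *Bcl6* and *4930595D18Rik*, *Ms4a4d* to *AI504432*, *Pgpep1l* and *Chst15*, and *Ms4a6c* to *Slc5a3*, *Sulf2* and *Zfp937*. With 5 libraries in 2 groups, such closeness is mostly the size of the difference between genotypes and describes these libraries only.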

How the data were processed

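RNA-seq libraries of CD4 SP cells, prepared with SMART-seq v4 and Nextera XT, came from 3 WT and 2 *Tet2/3* DKO mice, grouped by the sample titles. Per the submitters' processing notes, reads were trimmed with fastp 0.21.0 and aligned with STAR 2.7.5a to mm10, and the authors deposited for each library the STAR count of reads per gene, not normalized or pooled, without reads that map to several places or to overlapping genes. The column without strand was used. Clonotype tables were not used. Symbols and coordinates came from GENCODE M21, which held 55227 of the 55487 gene identifiers, and RefSeq gave 2 further *Ms4a* names.

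Counts were tested with edgeR 4.0.16 in R 4.3.3 (quasi-likelihood with the newer moderation, TMM, filterByExpr, Benjamini-Hochberg over 13525 genes, threshold 0.01). CPM was computed from the counts with TMM factors. TPM was computed from counts per exon length, scaled to the sum within each library, without TMM factors. Standard errors are the log2 fold change over the square root of F. DESeq2 1.42.0 was an alternative, as were other scalings, filters, moderations, strands, a replicate block, a threshold of 0.05 and leaving out each library. Sequences were compared in Python 3.11.15 with Biopython 1.88. On simulated data edgeR recovered 100 of 100 genes changed by 2 on the log2 scale and 58 of 100 changed by 1 among 13281 genes, with 1 false call. The simulation gave every gene the same preset dispersion, not estimated from these libraries. Changes were placed only in genes above a CPM floor, so these rates do not cover the lowest genes.

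The members and lists were chosen with earlier results of these data known. Named were the members, the other *Ms4a* genes, *Tmem176a* and *Tmem176b*, the targeted genes, neighbours past the threshold or nearest the cluster's ends, 3 genes closest in profile to each member, up to 4 genes past the threshold of each list and defining markers, of which 1 is not reported here. *Ccr7*, *S1pr1*, *Tnfrsf18*, *Xist*, *C1qb*, *Klrb1c*, *Klrd1* and *Nkg7* were named after their values were seen. The replicate numbers mark different mice, and the correlations of same-numbered deviations were 0.02 and 0.00, so the samples were not paired. Without molecular identifiers, limits of 3 counts cover counting error only.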

Additional observations from a re-analysis of the deposited data

How the results depend on the processing

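The 6 members stayed higher in *Tet2/3* DKO cells under all 15 alternatives, and no named result reversed. Leaving out each library in turn gave log2 fold changes of 0.79 to 0.99 for *Ms4a4b*, 3.17 to 3.45 for *Ms4a4c*, 1.18 to 1.58 for *Ms4a4d*, 0.40 to 0.75 for *Ms4a6b*, 0.99 to 1.36 for *Ms4a6c* and 1.86 to 2.30 for *Ms4a6d*. The number of genes past the threshold was 530, 1027 with DESeq2, 1173 at an adjusted p of 0.05 and 110 to 1311 without 1 library. Without 1 library there were 2 to 5 of the 6 members, 3 to 15 neighbours, 0 to 2 other family genes and relatives, 1 to 17 interferon-stimulated genes, 0 to 8 genes of the GITR list and 2 to 13 maturation genes. DESeq2 gave 2, 7 and 14, and an adjusted p of 0.05 gave 2, 8 and 13, for other family genes and relatives, interferon-stimulated genes and maturation genes. Fits that leave out a DKO library hold a single DKO library and take their spread from the WT libraries alone. Their counts, which are the upper ends of the ranges without 1 library, cannot be compared with the others. The second read strand gave 0 other family genes and relatives. With the replicate number as a block, 358 genes were past the threshold, with 5 neighbours and 0 other family genes and relatives. Same-numbered mice are different animals and share only a number. Of 576 alternative values of 36 named genes outside the members, 481 kept their side of the threshold, 91 fell short of it and 4 passed it. The cause was not tested, beyond fewer libraries in a fit. With 3 against 2 mice, changes of 1 on the log2 scale were recovered in simulated data for 58 of 100 genes. That rate holds for the preset dispersion, which may differ from the spread of genes among these mice.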
